A study of Mus musculus with 18 samples.

Results

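The comparison described here is that of mouse kidney 48 h after D-galactosamine with mouse kidney 24 h after it, 3 arrays against 3, out of 18 arrays in the series. Its members were the arrays whose titles name kidney and those times, and they were compared over all genes with a probe set of their own. D-galactosamine (GalN) is an amino sugar that is taken up by hepatocytes, traps their uridine nucleotides and kills them, so that the kidney is studied beside a liver undergoing massive necrosis. The 48 h kidneys came from male C57BL6 mice of 20 g killed 48 h after an intraperitoneal dose of 4.5 g per kg, and the 24 h kidneys from such mice killed 24 h after the same dose. The sham kidneys came from mice given saline and killed at 24 h. No saline group at 48 h is among the 6 groups, so hours since injection and hours since GalN cannot be told apart. C57BL6 is an inbred strain with no engineered allele. The kidneys were perfused in place, minced whole and sampled as a homogenate, so each value mixes all cell types of the organ, and fewer cells of a type and less RNA per cell cannot be told apart. Each group holds arrays lettered A, B and C. The protocol can be read as pooling RNA of the mice, and treating 1 array as 1 animal is an assumption: if it fails, the p-values measure technical spread only.

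Most of the kidney's mass is proximal tubule, whose cells reabsorb glucose, amino acids and phosphate, secrete organic anions, make glucose in fasting and break down amino acids to ammonium. Distal segments and the collecting duct set the final salt, acid and water content of urine. Injured tubule cells commonly switch on stress genes first, and survivors may then re-enter the cell cycle. Values are log2 gcRMA expression values, in which a step of 1 is a doubling on the scale of the deposited table and 2.213 is the lowest value. Levels of different genes are not compared, since each probe set has its own affinity. The kidney arrays carried the kidney's own defining genes. Umod, the most abundant protein of normal urine and made in the thick ascending limb, read 15.92 to 15.94 at 48 h and 15.68 to 15.87 at 24 h. Kap, an androgen-dependent protein of the mouse proximal tubule, read 16.15 to 16.20 at 48 h and 16.06 to 16.15 at 24 h. The 75th percentile of an array was 6.95 to 7.04 at 48 h, 6.98 to 7.07 at 24 h and 6.98 to 7.05 in sham kidneys, and arrays of 1 group correlated at 0.994 to 0.998 across probe sets. The 3-prime to 5-prime difference of the actin control sets, a sign of RNA length, was 1.63 to 1.75 at 48 h, 1.48 to 1.64 at 24 h and 1.72 to 2.02 in sham kidneys, and its part in the results was not tested.

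Between the times 194 of 11992 genes tested were called by limma at an adjusted p under 0.05, which is 1.62% of them. Of these, 115 genes were higher at 48 h than at 24 h (0.959% of the genes tested) and 79 were lower (0.659%). The difference reached 2-fold in 32 of the genes that rose and 18 of those that fell. The 48 h mean was nearer to the sham mean than the 24 h mean was in 68 of the 115 and 43 of the 79. The 24 h kidneys were called different from sham kidneys in 58 of the 115 and 34 of the 79. The 24 h arrays enter both comparisons, so these counts are not independent of the calls. At an unadjusted p under 0.05, 1076 genes were higher (8.97%) and 1119 lower (9.33%), and the median difference over all genes was 0. All 48 h arrays lay above all 24 h arrays in 1283 genes (10.7%) and below them in 1314 (11%). These shares over all genes are the ones to set beside each such count within a gene list below. In 2 of the genes that rose (Ak7 and Car11) and 3 of those that fell (Dipk1b, Lce1d and Tmem101, all named after their values were seen) every array of both times was at a background reading, so these 5 calls rest on differences between background values. More widely, the group with the lower values held a background reading in 22 of the 115 genes that rose and 19 of the 79 that fell. For these a fold is at best a lower bound.

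The number of calls depended on single arrays. The fit called 1 gene without 48 h A, 15 without 48 h B, 21 without 48 h C and 26 without 24 h C, and between 54 and 162 without any other kidney array. Leaving out 48 h A, the differences of the 43 called genes named below were 0.82 to 1.13 times those on all arrays, with adjusted p-values of 0.053 to 0.134, and 0 of the 43 calls held. In 9 fits that each left out 1 kidney array, Ackr4 and Asb11 were called in 8, and 10 of the 43 genes were called in at least 5. These counts apply to every call below, so that each rise or fall is one that passed on the full set of 9 kidney arrays.

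**Figure D1:**
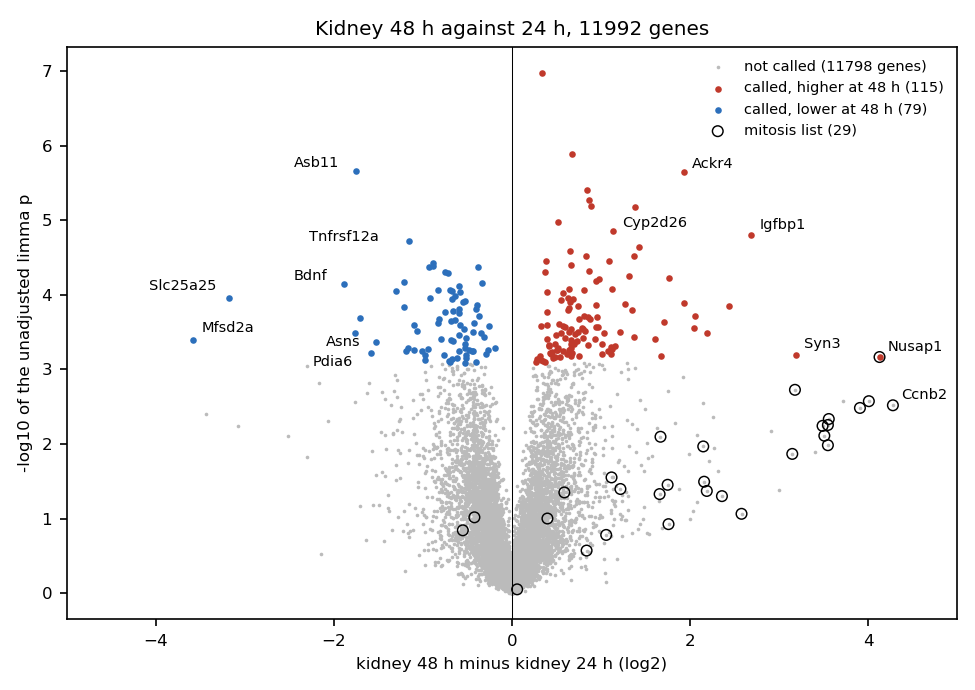
Difference between kidney at 48 h and at 24 h (x axis, log2) against the strength of the limma test (y axis, -log10 of the unadjusted p) for 11992 genes. The 115 called genes that were higher (red) and 79 that were lower (blue) sit on both sides of 0, while the 29 mitosis genes (open circles) lie mostly far to the right and below the line of calls because their arrays scattered.

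Igfbp1, a secreted protein that binds insulin-like growth factors and is raised by fasting, read 10.36, 10.13 and 10.34 in 48 h kidneys (arrays A, B and C), against 7.75, 7.27 and 7.72 in 24 h kidneys. The 48 h arrays scattered by 0.131 (SD, n = 3) and lay well above the 24 h arrays and above the sham arrays, at 8.32, 8.45 and 9.28. The rise was 6.47-fold (log2 2.69 ± 0.262 SE, adjusted p = 0.0175). Leaving out 48 h A it was 2.65, with an adjusted p of 0.0786.

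Ftcd, an enzyme of histidine breakdown that passes a one-carbon unit to folate, read 7.83, 7.58 and 7.83 at 48 h, against 6.37, 5.46 and 5.63 at 24 h and 7.94, 7.98 and 7.46 in sham kidneys. The groups at the 2 times did not overlap, and the 48 h and sham arrays did. The rise was 3.80-fold (adjusted p = 0.0279). Etnppl, which breaks down phosphoethanolamine, read 9.56, 9.58 and 10.16 at 48 h, against 8.21, 7.73 and 8.06 at 24 h, a 3.41-fold rise (adjusted p = 0.0246). Gys2, the glycogen synthase of liver, read 7.04, 7.02 and 7.22 at 48 h, against 6.02, 4.72 and 5.49 at 24 h, a 3.21-fold rise (adjusted p = 0.0450). Sham kidneys read 9.29, 9.45 and 9.01 for Etnppl and 6.60, 6.47 and 6.60 for Gys2, above all 24 h arrays. In all of these genes the lowest 48 h array exceeded the highest 24 h array. Their differences without 48 h A were 1.89 for Ftcd, 1.87 for Etnppl and 1.71 for Gys2, with adjusted p-values of 0.1, 0.0786 and 0.13.

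Kynu, the kynureninase of tryptophan breakdown, read 8.02, 7.66 and 7.66 at 48 h, against 6.04, 6.03 and 6.16 at 24 h and 6.03, 6.03 and 5.12 in sham kidneys. Its rise was at least 3.27-fold (adjusted p = 0.0339), since 1 of the 24 h readings was at background. Kmo, the monooxygenase that acts before kynureninase in that pathway, was singled out after its values were seen. It read 11.25, 11.18 and 11.33 at 48 h, against 10.34, 10.32 and 10.48 at 24 h, and rose 1.83-fold (adjusted p = 0.00986). Both enzymes stood apart between the times, and their sham values, 10.97, 10.85 and 11.05 for Kmo, lay between for Kmo but not for Kynu. Prodh2, the hydroxyproline dehydrogenase of proximal tubule and liver, read 10.52, 10.24 and 10.14 at 48 h, against 9.37, 8.91 and 9.24 at 24 h, and rose 2.18-fold (adjusted p = 0.0249). Lacking 48 h A, the difference of Kynu was 1.59 (adjusted p = 0.103) and that of Prodh2 was 1.01 (adjusted p = 0.0786).

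Genes that the liver makes in quantity did not move as 1 block. Of 17 hepatocyte genes tested, 1 rose, 0 fell, and the median difference was 0. The gene that rose, Fgb, the beta chain of fibrinogen, read 3.51, 3.09 and 3.14 at 48 h, against 2.38, 2.41 and 2.68 at 24 h, near the bottom of the scale at both times. Its rise was at least 1.03-fold (adjusted p = 0.0450). Alb read 7.45, 8.04 and 7.81 at 48 h, against 8.32, 8.20 and 7.78 at 24 h, and F2, Ahsg, Hpx, Cps1 and Ambp were at background in all arrays of both times. The summed linear level of the list was 92319 to 113435 at 48 h and 80255 to 85775 at 24 h, and 100027 to 113405 in sham kidneys. Its part in the calls was not tested. Car3, a carbonic anhydrase of muscle, fat and liver, read 14.07, 14.74 and 14.16 at 48 h, against 13.31, 13.56 and 12.14 at 24 h and 14.58, 14.96 and 14.43 in sham kidneys (adjusted p = 0.14 by limma), and rank product called it higher.

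The other large rises were in genes of mixed roles. Syn3, a synapsin known from synaptic vesicles, read 8.54, 8.28 and 7.84 at 48 h, against 4.67, 5.28 and 5.14 at 24 h, a 9.13-fold rise (adjusted p = 0.0443). Clec2h, a C-type lectin, read 12.91, 12.77 and 12.66 at 48 h, against 10.36, 10.05 and 10.62 at 24 h, a 5.42-fold rise (adjusted p = 0.0280). Zc3h12c, a CCCH zinc finger protein of the regnase family, read 8.50, 8.06 and 8.49 at 48 h, against 6.44, 5.85 and 6.57 at 24 h, a 4.17-fold rise (adjusted p = 0.0314). For each of these the lowest 48 h array was more than 1 log2 unit above the highest 24 h array. Sham kidneys spread widely for Syn3, at 5.83, 6.42 and 8.09, and reached 12.25 in sham C for Clec2h. For Zc3h12c they read 7.89, 8.32 and 8.86, a range that held all 48 h arrays, and the 24 h kidneys were called below them (log2 -2.07, adjusted p = 0.0206). The differences without 48 h A were 3.03 for Syn3, 2.37 for Clec2h and 1.99 for Zc3h12c (adjusted p-values of 0.134, 0.1 and 0.101).

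Ackr4, an atypical chemokine receptor that takes up chemokines without G protein signalling, read 5.73, 6.0 and 5.6 at 48 h. It read 3.69, 4.05 and 3.81 at 24 h, and almost the same in sham kidneys (3.72, 4.03 and 3.81). The rise was at least 3.80-fold (adjusted p = 0.00672), since 1 of the 24 h readings counted as background, and against sham kidneys the 48 h value was 1.92 higher (adjusted p = 0.00455). The rise of Ackr4 without 48 h A was 1.95 with an adjusted p of 0.053. Tlcd5 rose 4.14-fold (6.98, 6.52 and 6.59 at 48 h, against 4.21, 5.0 and 4.73 at 24 h, adjusted p = 0.0343, and 0.111 without 48 h A). Cpne4, a copine, rose at least 1.70-fold (4.56, 3.40 and 3.97 at 48 h, against 2.37 in every 24 h array, a background reading, adjusted p = 0.0386, and 0.0786 without 48 h A). Both had non-overlapping times.

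The deepest falls were in transporters. Mfsd2a, which carries lysophosphatidylcholine with long-chain fatty acids into cells, read 5.57, 6.39 and 4.19 in 48 h kidneys, against 8.64, 8.82 and 9.43 in 24 h kidneys and 8.72, 7.64 and 8.57 in sham kidneys. The 48 h arrays lay below all others but scattered over more than 2 log2 units. The fall was 12-fold (log2 -3.58 ± 0.575 SE, adjusted p = 0.0388), and 48 h kidneys were also below sham kidneys, by 2.93 (log2 -2.93, adjusted p = 0.0499). None of the 9 fits that left out an array called it (adjusted p = 0.0584 to 0.114). Slc25a25, a mitochondrial carrier that exchanges ATP-magnesium for phosphate, read 6.45, 6.14 and 7.64 at 48 h, against 9.58, 10.10 and 10.10 at 24 h and 8.29, 7.47 and 7.63 in sham kidneys. It was higher at 24 h than in sham kidneys, by 2.13 (adjusted p = 0.0373), and fell 9.07-fold at 48 h against 24 h (adjusted p = 0.0270, and 0.0977 without 48 h A). Its second probe set with signal fell by 1.97.

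**Figure D2:**
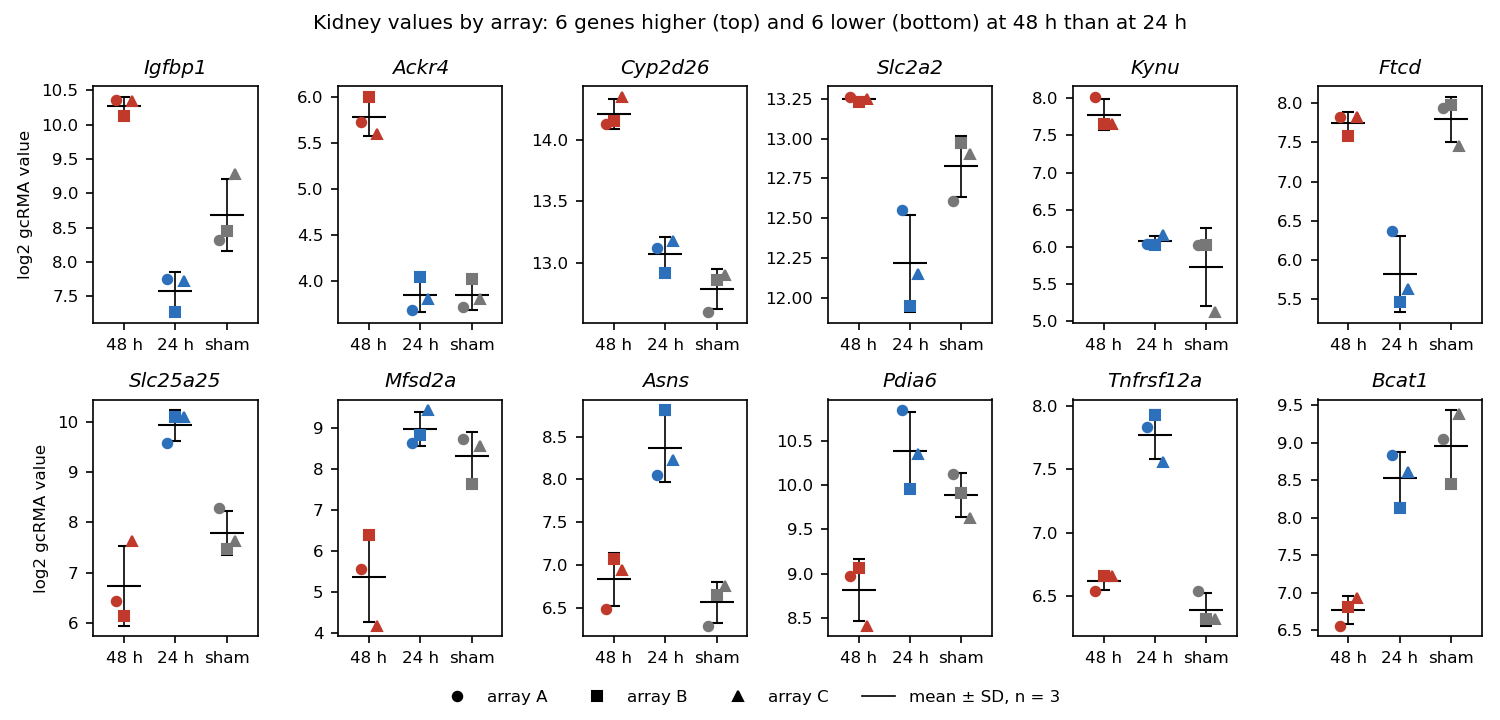
Log2 gcRMA values of 12 genes in the kidney arrays at 48 h, at 24 h and in sham kidneys, each on its own y axis. Points are arrays A, B and C, and bars are the mean and SD of 3 arrays. In the top row (for example Igfbp1, 10.13 to 10.36 at 48 h and 7.27 to 7.75 at 24 h) every 48 h array is above every 24 h array, and in the bottom row below it, with sham kidneys at various places.

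Several genes were raised at 24 h and lower again at 48 h. Asns, the asparagine synthetase that amino acid shortage induces, read 6.48, 7.07 and 6.94 at 48 h, against 8.05, 8.81 and 8.23 at 24 h and 6.29, 6.65 and 6.75 in sham kidneys. The fall was 2.89-fold (log2 -1.53 ± 0.248 SE, adjusted p = 0.0395), and the 24 h kidneys were 1.8 above sham (adjusted p = 0.0200). Tnfrsf12a encodes the TWEAK receptor, which injured epithelium displays, and read 6.54, 6.66 and 6.66 at 48 h, against 7.83, 7.93 and 7.56 at 24 h. Its fall was at least 2.22-fold (adjusted p = 0.0189), and sham kidneys read 6.54, 6.32 and 6.32. In both genes the 24 h arrays were above every other kidney array. The difference without 48 h A was -1.36 for Asns (adjusted p = 0.113) and -1.11 for Tnfrsf12a (adjusted p = 0.0786). The 24 h arrays enter the comparison with 48 h and that with sham, so these 2 sets of values are not independent.

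Asb11, a substrate receptor of a ubiquitin ligase, read 2.59, 2.53 and 2.53 at 48 h, against 4.13, 4.54 and 4.24 at 24 h and 2.93, 2.74 and 2.53 in sham kidneys. The 48 h and sham arrays were all within 1 of the lowest value, so that the fall is a bound of at least 2.13-fold (adjusted p = 0.00672, and 0.053 without 48 h A). Nans, the synthase of sialic acid phosphate, read 6.75, 6.43 and 6.53 at 48 h, against 7.87, 7.65 and 7.83 at 24 h, a 2.32-fold fall (adjusted p = 0.0249, and 0.0786 without 48 h A). Klhl14, a kelch-like protein, read 3.02, 3.06 and 3.33 at 48 h, against 4.94, 5.02 and 4.53 at 24 h, a fall of at least 2.99-fold (adjusted p = 0.0314, and 0.102 without 48 h A). Esrrb, an orphan nuclear receptor related to the estrogen receptors, read 5.92 in each 48 h array, against 7.54, 7.02 and 6.77 at 24 h, at least 2.28-fold lower (adjusted p = 0.0431, and 0.128 without 48 h A). The equal 48 h readings of Esrrb are a background value. In Asb11, Nans, Klhl14 and Esrrb the 24 h kidneys were also called above sham kidneys, by 1.57, 1.04, 1.63 and 1.32.

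In other falls the 24 h kidneys were not called higher than sham kidneys. Bcat1, the cytosolic aminotransferase of branched-chain amino acids, read 6.56, 6.81 and 6.93 at 48 h, against 8.83, 8.13 and 8.61 at 24 h and 9.05, 8.45 and 9.38 in sham kidneys. It fell 3.39-fold against 24 h (adjusted p = 0.0355, and 0.114 without 48 h A) and was 2.20 log2 units below sham (log2 -2.20, adjusted p = 0.0193). Bdnf, a neurotrophin, read 2.96, 2.81 and 2.81 at 48 h, against 4.34, 4.67 and 5.26 at 24 h, at least 2.91-fold lower (adjusted p = 0.0249, and 0.0852 without 48 h A). Sham kidneys read 3.94, 3.67 and 4.16 for Bdnf, between the times. Mtmr11, a myotubularin-related protein, fell 2.31-fold (7.24, 7.38 and 7.29 at 48 h, against 8.54, 8.68 and 8.30 at 24 h, adjusted p = 0.0282, and 0.1 without 48 h A).

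Slc38a3 is the glutamine transporter that feeds ammonium production in the proximal tubule. It read 9.32, 9.48 and 9.15 at 48 h, against 10.63, 10.77 and 10.45 at 24 h and 10.40, 9.84 and 9.97 in sham kidneys. The times did not overlap, and the fall was 2.46-fold (log2 -1.30 ± 0.164 SE, adjusted p = 0.0249, and 0.093 without 48 h A). A second probe set of Slc38a3 differed by 0.14 in the other direction. Glul, which makes glutamine from glutamate and ammonia, was singled out after its values were seen: it read 14.05, 14.13 and 14.33 at 48 h, against 13.47, 13.24 and 13.32 at 24 h, and rose 1.77-fold (adjusted p = 0.0224). Of 27 genes of gluconeogenesis and amino acid breakdown tested, 2 rose (Kynu and Prodh2), 1 fell (Slc38a3) and 24 were not called. The median difference of the list was 0.11, beside 0 over all genes. All 48 h arrays lay above all 24 h arrays in 11 of the 27 and below them in 2, beside 10.7% and 11% of all genes. At an unadjusted p under 0.05 by limma, 9 were higher and 2 lower. Rank product called 3 higher (Bhmt, G6pc and Kynu) and 1 lower (Slc38a3). G6pc, the glucose-6-phosphatase that releases glucose, read 13.97, 13.89 and 14.34 at 48 h, against 13.09, 12.71 and 12.52 at 24 h, and narrowly missed the threshold (difference 1.29, adjusted p = 0.0502). Pck1, the rate-setting enzyme of gluconeogenesis, differed by -0.03 (adjusted p = 0.87).

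Proximal tubule transporters were called in both directions. Of 29 tested, 2 rose, 1 fell and 26 were not called, with a median difference of 0.09. Slc2a2, the basolateral glucose transporter GLUT2, read 13.26, 13.23 and 13.25 at 48 h, against 12.55, 11.95 and 12.15 at 24 h, a 2.04-fold rise (adjusted p = 0.0355). Its sham arrays, at 12.61, 12.97 and 12.90, lay between the times. Slc7a9, the light subunit of the cystine transporter, read 13.43, 13.55 and 13.60 at 48 h, against 12.73, 12.98 and 12.94 at 24 h, a 1.56-fold rise (adjusted p = 0.0355). Slc22a6, the organic anion transporter OAT1, read 12.59, 12.62 and 12.39 at 48 h, against 13.05, 13.24 and 13.08 at 24 h, a 1.51-fold fall (adjusted p = 0.0431). In these 3 genes the times did not overlap. Of the 29 genes, 9 had all 48 h arrays above and 6 all below the 24 h arrays, beside 10.7% and 11% of all genes. The differences without 48 h A were 1.02 for Slc2a2, 0.69 for Slc7a9 and -0.62 for Slc22a6 (adjusted p-values of 0.114, 0.099 and 0.114). Slc6a19, the apical neutral amino acid transporter, read 13.26, 12.76 and 13.76 at 48 h, against 12.08, 11.42 and 11.79 at 24 h, without overlap. Limma did not call it (adjusted p = 0.0845), while rank product called it higher. Slc34a1, the phosphate cotransporter, read 14.72, 14.73 and 14.70 at 48 h, against 14.60, 14.51 and 14.58 at 24 h (adjusted p = 0.41), and Aqp1, the constitutive water channel, read 13.47, 13.69 and 13.68 at 48 h, against 13.68, 13.46 and 13.48 at 24 h (adjusted p = 0.778). The summed level of the list was 397842 to 418624 at 48 h, 344463 to 369966 at 24 h and 379184 to 428092 in sham kidneys, and its part in the calls was not tested.

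Among enzymes of renal drug and steroid metabolism, 1 of 26 rose and 0 fell. Cyp2d26, a cytochrome P450, read 14.13, 14.15 and 14.35 at 48 h, against 13.12, 12.92 and 13.18 at 24 h and 12.60, 12.86 and 12.90 in sham kidneys. The rise was 2.20-fold (log2 1.14 ± 0.108 SE, adjusted p = 0.0168), and 7 of the 9 fits that left out an array called it (adjusted p = 0.0662 without 48 h A). Of 28 genes of fatty acid oxidation, 1 rose, Acaa1a, the peroxisomal thiolase, at 10.47, 10.50 and 10.65 at 48 h, against 9.63, 9.40 and 9.74 at 24 h (1.93-fold, adjusted p = 0.0249, and 0.0786 without 48 h A). Sham kidneys read 10.35, 10.32 and 10.06 for Acaa1a, between the times, and a second Acaa1a set differed by 0.33 between 48 h and 24 h. Angptl4 and Pdk4, a secreted lipase inhibitor and a kinase that shuts off pyruvate dehydrogenase, both of fasting, were highest in 1 array. Angptl4 read 8.77, 9.32 and 11.67 at 48 h, against 7.62, 8.15 and 7.90 at 24 h (adjusted p = 0.332), and Pdk4 read 7.99, 8.78 and 11.21 at 48 h, against 7.94, 7.01 and 7.03 at 24 h (adjusted p = 0.372). Both times 48 h C gave the highest reading, and sham C was the highest sham array, at 10.19 for Angptl4 and 9.36 for Pdk4. All 48 h arrays of both genes lay above all 24 h arrays, for Pdk4 by 7.99 against 7.94. Rank product called 3 of the 28 fatty acid oxidation genes higher: Angptl4, Fabp1 and Pdk4. Of the 25 genes of the glucocorticoid and fasting list, which holds Angptl4, Pdk4 and Igfbp1, 1 rose and 0 fell, with 18 higher and a median of 0.34. All 48 h arrays lay above all 24 h arrays in 10 of the 25 and below them in 0, beside 10.7% and 11% of all genes. Rank product called 4 of the 25 higher (Angptl4, G6pc, Igfbp1 and Pdk4) and 0 lower. Fkbp5, a cochaperone that glucocorticoids induce, read 10.16, 10.41 and 11.28 at 48 h, against 11.21, 11.43 and 11.67 at 24 h (difference -0.82, adjusted p = 0.258), opposite in sign to the list's median. Of 15 clock genes limma called 0 (1 higher and 1 lower at an unadjusted p under 0.05, 0 by rank product). Per1 differed by 0.56 (adjusted p = 0.321), Dbp by 0.26 (adjusted p = 0.468), and Nfil3 by 0.52 (adjusted p = 0.542).

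Genes of mitosis held the largest differences and the widest scatter. Of 40 listed genes 29 were tested, and 1 rose, 0 fell and 28 were not called, although 27 were higher at 48 h. All 48 h arrays lay above all 24 h arrays in 23 of the 29 (10.7% of all genes), and 20 of the 29 were higher at an unadjusted p under 0.05 (8.97% of all genes). Rank product, the test that the design text names, called 19 of the 29 higher and 0 lower. The median difference was 2.16, beside 0 over all genes. Their median level was 7.73 in 48 h A, 4.66 in 48 h B and 4.33 in 48 h C, against 2.78, 2.85 and 2.81 in the 24 h arrays and 3.77, 4.73 and 2.94 in the sham arrays. Array 48 h A was thus the highest, 48 h B and C lay within the range of the sham arrays, and the 24 h arrays were the lowest. Summed over the 29 genes on the linear scale the level was 13105, 5202 and 4128 in 48 h A, B and C, against 5265, 7224 and 6068 in the 24 h arrays and 6581, 6057 and 4526 in the sham arrays. The sums of 48 h B and C were thus below every 24 h sum, unlike their medians. The 24 h sums were mostly Cks2 and Spc25, the 2 genes of the list that were lower at 48 h, so they do not describe the other members. Cks2, a subunit of cyclin-dependent kinase complexes, read 11.88, 11.08 and 10.74 at 48 h, against 11.39, 12.19 and 11.79 at 24 h (difference -0.55, adjusted p = 0.434). Spc25, of the outer kinetochore, read 11.15, 10.37 and 10.34 at 48 h, against 11.06, 11.03 and 11.03 at 24 h (difference -0.42, adjusted p = 0.362). In 17 of the 29 genes every 24 h array was at background. A gene passed the filter on low values if it was above the array median in 3 of 9 arrays, so genes at background at 24 h entered only through the other groups.

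**Figure D3:**
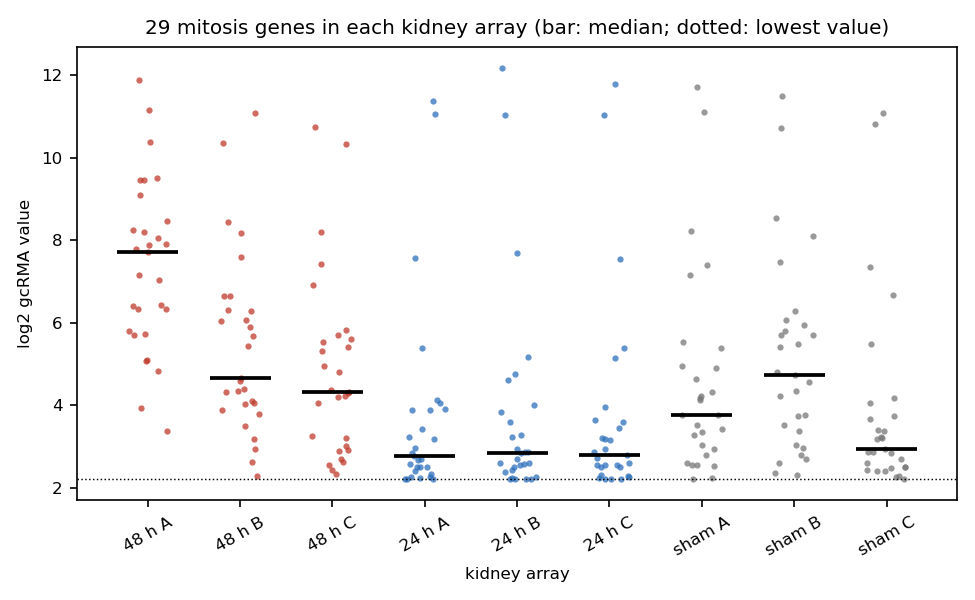
Log2 gcRMA values of the 29 mitosis genes tested (points) in each kidney array, with the array's median as a bar and the lowest value of the table as a dotted line. The median is 7.73 in 48 h A, 4.66 and 4.33 in 48 h B and C, 2.78 to 2.85 in the 24 h arrays and 2.94 to 4.73 in the sham arrays.

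Nusap1, which binds microtubules around the chromosomes in the spindle, was the 1 mitosis gene called. It read 7.89, 6.07 and 5.6 at 48 h, against 2.25, 2.39 and 2.55 at 24 h and 3.28, 4.73 and 2.49 in sham kidneys. All 48 h arrays were above every other array. The rise was at least 9.91-fold (log2 4.13 ± 0.722 SE, adjusted p = 0.0458), and 0 of 9 fits that left out an array called it (3.44 and adjusted p = 0.103 without 48 h A). Ccnb2, a mitotic cyclin, read 8.26, 6.65 and 5.53 at 48 h, against 2.52, 2.58 and 2.51 at 24 h, and was not called (difference 4.28, adjusted p = 0.0805, and 0.188 without 48 h A). Birc5, the survivin of the chromosomal passenger complex, read 8.20, 6.04 and 4.95 at 48 h, against 2.41, 2.44 and 2.31 at 24 h (adjusted p = 0.0773). Cdk1, the kinase that drives entry into mitosis, read 9.46, 6.29 and 5.71 at 48 h, against 3.89, 3.29 and 3.64 at 24 h (adjusted p = 0.138). In each, 48 h A was the highest array and 48 h B and C were above all 24 h arrays, while sham B came within 1 of 48 h B for Ccnb2 (5.96) and Cdk1 (6.08). Ube2c, which delivers ubiquitin for the anaphase-promoting complex, read 9.09, 6.66 and 5.41 at 48 h, against 3.42, 3.61 and 3.61 at 24 h (adjusted p = 0.119).

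The excess of 48 h A varied from gene to gene. Top2a, the topoisomerase of dividing cells, read 7.91 in 48 h A, 4.66 in B and 4.38 in C, against 2.50 in every 24 h array (adjusted p = 0.155). Mki67, the proliferation antigen Ki-67, read 7.73, 3.79 and 2.93 at 48 h, against 2.27, 2.24 and 2.21 at 24 h (adjusted p = 0.345), and sham B, at 5.48, was above 48 h B and C. Aurkb, the kinase of the passenger complex, read 6.43, 2.29 and 3.21 at 48 h, against 2.21 in each 24 h array (adjusted p = 0.4). Prc1 (7.04, 4.41 and 2.43), Anln (6.41, 4.59 and 2.33), Ccna2 (6.34, 3.50 and 3.27) and Cdkn3 (5.70, 2.94 and 3.01) had the same order of 48 h A over the others. Their 24 h arrays read 2.21 to 2.94, overlapping 48 h B for Cdkn3, with adjusted p-values of 0.273, 0.254, 0.227 and 0.463. Over all 11992 genes, 106 were more than 1 higher in 48 h A than in both other 48 h arrays, and 23 of these were among the 29 mitosis genes. The same held for 67 genes in 48 h B and 33 in 48 h C, with 0 mitosis genes in either. It was known before these counts that 48 h A stood apart for mitotic genes, so they describe the array and test nothing. Leaving out 48 h A, the median difference of the list was 1.17 and limma called 0 of the 29.

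Genes of DNA replication had their highest median in 48 h A. The median was 8.19, 7.22 and 6.78 in the 48 h arrays, against 6.78, 6.54 and 7.11 in the 24 h arrays and 8.10, 7.77 and 6.29 in the sham arrays, so the medians overlapped. The summed linear level did not overlap, at 11642 to 19253 at 48 h and 8815 to 9033 at 24 h, with 8908 to 12353 in sham kidneys. All 48 h arrays lay above all 24 h arrays in 10 of the 25 genes tested (10.7% of all genes) and below them in 0 (11%). In 6 of the 25 every 24 h array was at background. Of 25 tested, limma called 0 (3 higher and 0 lower at an unadjusted p under 0.05) and rank product 1, Rrm2. Of the 25, 23 were higher at 48 h and the median difference was 0.60, or 0.23 without 48 h A. Rrm2, a subunit of ribonucleotide reductase, read 11.58, 9.57 and 9.29 at 48 h, against 6.48, 6.56 and 6.24 at 24 h and 8.64, 9.30 and 6.57 in sham kidneys (difference 3.72, adjusted p = 0.0773). Uhrf1, which copies DNA methylation at the fork, read 5.53, 3.13 and 2.64 at 48 h, against 2.32, 2.47 and 2.47 at 24 h (adjusted p = 0.452). Mcm5, a subunit of the replicative helicase, read 9.19, 7.62 and 7.32 at 48 h, against 6.91, 7.43 and 7.49 at 24 h (adjusted p = 0.619), and these overlapped. Of 9 histone and chromatin genes of S phase limma called 0 (1 higher and 1 lower at an unadjusted p under 0.05, 0 by rank product), with Hells, a chromatin remodeller, at 5.23, 2.40 and 3.07 at 48 h, against 2.35, 2.31 and 2.34 at 24 h (adjusted p = 0.468), and Stmn1, a microtubule destabiliser, at 11.51, 10.45 and 9.96, against 9.90, 9.37 and 9.47 at 24 h (adjusted p = 0.227). Over all genes rank product called 87 higher and 58 lower, of which 38 were also called by limma in the same direction.

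The start-proximal DNA of the mitosis genes is shown because many members carry the same pair of short motifs. The letters searched on both strands were TTTGAA, the core of the cell cycle homology region, and CCAAT, the box bound by NF-Y, in windows of 250 bases before to 50 after each start (RefSeq, GRCm38.p6). Promoters of 24 of the 29 genes were found, 26 windows in all. TTTGAA was in 21 of the 26, against 17.9% of all 32851 windows, CCAAT was in 22 against 37.4%, and both were in 20 (76.9%) against 6.95%. Neither was in the windows of Nusap1 or Birc5. Both motifs are shown in capitals in the stretches below, in the direction of the gene, ending at the base before the start. Cdc20, the activator of the anaphase-promoting complex, is at chr4:118437344-118437416 (minus strand), and Ccnb2 at chr9:70421555-70421741 (minus strand).
Cdc20: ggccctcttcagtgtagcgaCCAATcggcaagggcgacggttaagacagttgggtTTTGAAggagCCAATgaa
Ccnb2: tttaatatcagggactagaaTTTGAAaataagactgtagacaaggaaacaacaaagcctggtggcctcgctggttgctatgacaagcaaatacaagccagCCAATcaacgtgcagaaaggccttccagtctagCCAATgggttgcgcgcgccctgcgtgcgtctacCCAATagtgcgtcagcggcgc
Cdc20 itself read 10.39, 8.19 and 7.44 at 48 h, against 5.4, 4.77 and 5.4 at 24 h and 7.17, 8.11 and 5.48 in sham kidneys (adjusted p = 0.104). A match of letters is a description of these windows and no measure of binding.

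Chaperones and folding enzymes of the endoplasmic reticulum (ER) were mostly lower at 48 h. Of 18 tested, 0 rose, 2 fell and 16 were not called, 15 were lower, and the median difference was -0.37, or -0.43 without 48 h A. All 48 h arrays lay below all 24 h arrays in 8 of the 18, where 11% of all genes did so. Pdia6, a protein disulfide isomerase that also restrains the stress sensor IRE1, read 8.97, 9.06 and 8.41 at 48 h, against 10.85, 9.96 and 10.36 at 24 h and 10.13, 9.91 and 9.63 in sham kidneys. The fall was 2.99-fold (log2 -1.58 ± 0.271 SE, adjusted p = 0.0442, and 0.117 without 48 h A). A second Pdia6 set had means of 2.25 at 48 h and 2.27 at 24 h, near the lowest value, so no change can be read from it. Pdia3, the isomerase that works with calnexin and calreticulin on glycoproteins, read 12, 11.95 and 11.94 at 48 h, against 12.99, 12.64 and 13.05 at 24 h and 12.74, 12.62 and 12.64 in sham kidneys. It fell 1.91-fold (adjusted p = 0.0224, and 0.0786 without 48 h A) and was 0.70 below sham (log2 -0.70, adjusted p = 0.0295). For both isomerases the 48 h arrays were below every other kidney array. Calr, calreticulin itself, read 13.76, 13.47 and 13.24 at 48 h, against 14.44, 14.11 and 14.18 at 24 h (difference -0.76, adjusted p = 0.0585).

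Not every ER gene took part. Hspa5, the master chaperone BiP, read 12.72, 12.62 and 12.07 at 48 h, against 12.73, 12.31 and 13.15 at 24 h (adjusted p = 0.617), and Hsp90b1 read 13.37, 13.11 and 12.82 at 48 h, against 13.67, 13.28 and 13.80 at 24 h (adjusted p = 0.205). Both overlapped between the times. Herpud1, of ER-associated degradation, differed by 0.58 (adjusted p = 0.201) and Dnajb9 by 0.48 (adjusted p = 0.267), above 0. Secretory genes outside the list were singled out after their values were seen. Serp1, a stress-associated ER membrane protein, fell 1.5-fold (10.83, 10.97 and 10.97 at 48 h, against 11.43, 11.46 and 11.64 at 24 h, adjusted p = 0.0249). Srprb, the beta subunit of the signal recognition particle receptor, fell 1.51-fold (adjusted p = 0.0297). Crtap and Plod1, which modify proline and lysine of procollagen, fell 1.59-fold (adjusted p = 0.0249) and 2.14-fold (adjusted p = 0.0342).

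Promoter stretches of 3 ER genes show the ER stress response element, which the factors ATF6 and NF-Y are known to bind. It was searched on both strands as CCAAT and CCACG with any 9 bases between them, so every match contains the CCAAT box above. Promoters of 16 of the 18 genes were found, 1 window each, and the element was in 7 (43.8%), against 0.119% of all 32851 windows of the same length. The 7 were Calr, Canx, Creld2, Dnajc3, Hsp90b1, Hspa5 and Pdia6. Pdia3, which fell, had no match in its window, and Hspa5, whose times overlapped, had 1. The element is in capitals below, in the direction of each gene. The Pdia6 stretch is chr12:17266471-17266529 (plus strand), that of Calr chr8:84847055-84847113 (minus strand, with the element on the opposite strand), and that of Hspa5 chr2:34772005-34772063 (plus strand).
Pdia6: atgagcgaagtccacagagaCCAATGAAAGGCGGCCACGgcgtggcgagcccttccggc
Calr: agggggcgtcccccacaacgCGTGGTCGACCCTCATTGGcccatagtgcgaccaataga
Hspa5: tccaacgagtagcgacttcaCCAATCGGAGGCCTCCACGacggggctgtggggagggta
The match begins 98 bases before the start in Pdia6, 162 before it in Calr and 65 before it in Hspa5.

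Genes that the factor ATF4 induces in amino acid shortage or ER stress split by direction. Of 16 tested, 2 rose (Sesn2 and Chac1), 1 fell (Asns), and the median difference was 0.04. All 48 h arrays lay above all 24 h arrays in 4 of the 16 and below them in 4, beside 10.7% and 11% of all genes. Sesn2, a sestrin that restrains growth signalling through mTORC1, read 9.15, 9.04 and 9.54 at 48 h, against 8.08, 8.20 and 7.97 at 24 h and 7.84, 7.84 and 8.40 in sham kidneys. It rose 2.24-fold (adjusted p = 0.0425, and 0.114 without 48 h A). Chac1, which degrades glutathione, read 5.53 in all 48 h arrays, against 4.87, 4.93 and 4.87 at 24 h (adjusted p = 0.0249, and 0.0909 without 48 h A). All 48 h readings of Chac1 and 2 of its 3 24 h readings are background values, so no fold is given. Atf4 itself differed by 0.98 (adjusted p = 0.0845), and the serine synthesis genes Phgdh and Psat1 by -0.84 (adjusted p = 0.155) and -0.71 (adjusted p = 0.0517). The promoter of Asns is shown for the composite C/EBP-ATF element, here as TGATGNAA on either strand, which was in 5 of 19 windows of the list (26.3%) and in 3.97% of all windows. The stretch is chr6:7693210-7693252 (minus strand), in the direction of the gene and ending at the base before the start.
Asns: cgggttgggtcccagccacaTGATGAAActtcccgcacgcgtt
The match begins 23 bases before the start.

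Targets of p53 were also mixed. Of 17 tested, 1 rose (Sesn2, above, which both lists hold) and 2 fell, with a median of -0.28. Zmat3, an RNA-binding zinc finger protein, read 6.55, 6.60 and 6.29 at 48 h, against 7.64, 7.24 and 7.75 at 24 h, a 2.08-fold fall (adjusted p = 0.0355, and 0.102 without 48 h A). Aen, an apoptosis-enhancing nuclease, read 6.49, 6.13 and 6.20 at 48 h, against 7.51, 6.91 and 7.41 at 24 h, a 2.01-fold fall (adjusted p = 0.0431, and 0.0979 without 48 h A). For both the times did not overlap. Cdkn1a, the p21 inhibitor of the cell cycle, read 6.40, 6.45 and 6.87 at 48 h, against 7.33, 7.23 and 6.78 at 24 h, with 1 array of each time overlapping (adjusted p = 0.179).

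**Figure D4:**
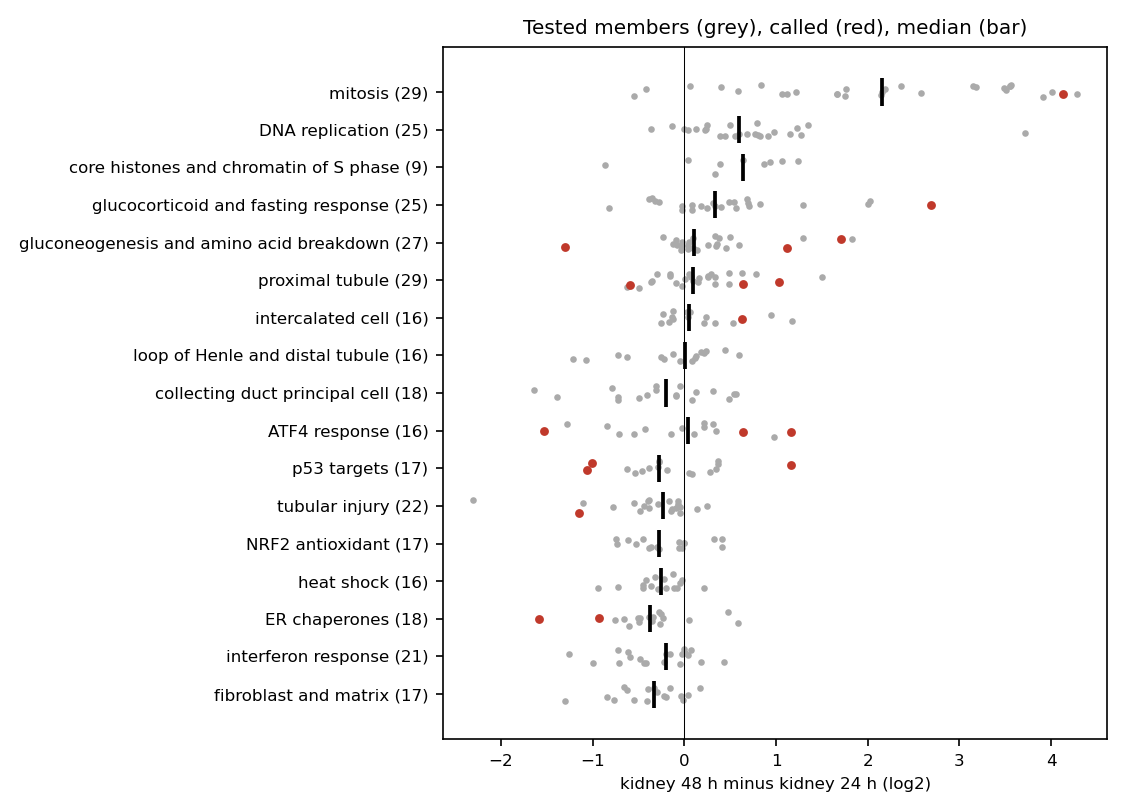
Difference between kidney at 48 h and at 24 h (x axis, log2) for the tested members of 17 gene lists, with the number tested in brackets. Grey points are members not called, red points called members and black bars list medians. The medians run from 2.16 for mitosis to -0.37 for ER chaperones, and no list has more than 3 called members.

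Tubular injury genes were lower or level at 48 h. Of 22 tested, 0 rose, 1 fell (Tnfrsf12a), 20 were lower, and the median was -0.23. Lcn2, the urinary injury marker NGAL, read 7.38, 6.46 and 5.31 at 48 h, against 8.77, 9.39 and 7.90 at 24 h and 4.62, 4.46 and 2.70 in sham kidneys. All 48 h arrays were below the 24 h and above the sham arrays, but the difference of -2.30 was not called by limma (adjusted p = 0.162, and 0.181 without 48 h A), while rank product called it. Havcr1, the injury molecule KIM-1, was at or near background (2.90, 2.90 and 3.34 at 48 h, against 2.90, 2.93 and 2.90 at 24 h). Clu, a secreted chaperone, read 13.91, 14.01 and 14.37 at 48 h, against 13.40, 14.11 and 14.03 at 24 h (adjusted p = 0.599), and Vim, an intermediate filament of dedifferentiated cells, read 11.25, 11.57 and 10.77 at 48 h, against 11.12, 11.81 and 10.85 at 24 h (adjusted p = 0.968). Krt20 fell below the filter, and Spp1 and Ccnb1 had no probe set named for them alone.

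Heat shock genes gave 0 limma calls in 16 (0 higher and 7 lower at an unadjusted p under 0.05, 0 by rank product), with 15 lower and a median of -0.25. Over all genes 8.97% were higher and 9.33% lower at that unadjusted p. Hsph1, a large cochaperone of HSP70, read 9.44, 9.84 and 9.41 at 48 h, against 10.87, 10.13 and 10.52 at 24 h (adjusted p = 0.0691), and Hspb1, a small heat shock protein, was highest in 24 h A (7.64, 8.11 and 8.08 at 48 h, against 9.75, 8.29 and 7.95 at 24 h, adjusted p = 0.438). Of 17 NRF2 antioxidant genes limma called 0 (1 higher and 5 lower at an unadjusted p under 0.05, 0 by rank product). Gclc, the catalytic subunit of glutathione synthesis, differed by -0.74 (adjusted p = 0.297), Cbr3, a carbonyl reductase, by -0.73 (adjusted p = 0.232), and Hmox1, heme oxygenase, by 0.41 (adjusted p = 0.567). Metallothioneins Mt1 and Mt2 differed by -0.38 and -0.32 (adjusted p = 0.505 and 0.657), and Slc39a14, a zinc and iron importer, by -0.61 (adjusted p = 0.267). Of 16 immediate early genes, 1 rose: Klf6, a zinc finger factor, read 8.68, 8.83 and 8.62 at 48 h, against 7.76, 7.81 and 8.10 at 24 h (1.77-fold, adjusted p = 0.0355, and 0.107 without 48 h A). Fos and Egr1 scattered within groups: Egr1 read 6.26, 8.61 and 5.10 at 48 h, against 7.31, 5.69 and 7.20 at 24 h (adjusted p = 1), Fos 4.10, 6.55 and 3.80, against 4.13, 3.80 and 5.38 (adjusted p = 0.878), and Atf3 stayed at 3.09 to 3.10.

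Acute phase genes were called in both directions, and limma called 0 of the chemokine and interferon genes tested. Of 19 acute phase genes, 2 rose (Cfb and Fgb) and 1 fell (Fgg), where 0.959% of all genes rose and 0.659% fell. Rank product called 2 of the 19 lower, Lcn2 and Hp, and 0 higher. The times overlapped for Hp, at 2.69, 7.33 and 5.54 at 48 h, against 7.95, 8.52 and 2.69 at 24 h. Cfb, complement factor B, read 11.64, 11.60 and 11.49 at 48 h, against 10.81, 10.88 and 11.04 at 24 h, a 1.59-fold rise (adjusted p = 0.0431, and 0.13 without 48 h A). Fgg, the gamma chain of fibrinogen, read 8.99, 8.97 and 9.05 at 48 h, against 9.65, 9.71 and 9.89 at 24 h and 8.40, 8.27 and 8.03 in sham kidneys. The 48 h arrays lay between the others, and the fall was 1.68-fold (adjusted p = 0.0295, and 0.1 without 48 h A). The gamma and beta chains were called in opposite directions, but Fgb read near the bottom of the scale at both times. Its rise was at least 1.03-fold, and 0 of 9 fits that left out an array called it. Chemokine and NF-kB genes gave 0 limma calls in 15 (1 higher and 2 lower at an unadjusted p under 0.05, 0 by rank product), with Nfkbia, the inhibitor of NF-kB, at a difference of 0.65 (adjusted p = 0.0819) and Icam1, an adhesion molecule, at -0.46 (adjusted p = 0.194). Interferon genes gave 0 limma calls in 21 (0 higher and 6 lower at an unadjusted p under 0.05, 1 by rank product, Ifit1). Ifit1 read 2.58, 3.26 and 2.53 at 48 h, against 4.50, 3.50 and 4.15 at 24 h (adjusted p = 0.0959), and Rtp4 read 6.92, 7.03 and 4.86, against 7.32, 7.22 and 7.26 at 24 h (adjusted p = 0.402).

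In the distal nephron few calls were made. Of 16 intercalated cell genes, 1 rose: Atp6v0d2, a subunit of the proton pump that acidifies urine, read 8.12, 8.29 and 8.45 at 48 h, against 7.65, 7.64 and 7.69 at 24 h and 8.17, 8.16 and 8.10 in sham kidneys (1.55-fold, adjusted p = 0.0288, and 0.0662 without 48 h A). Of 16 loop and distal tubule genes limma called 0 (3 higher and 3 lower at an unadjusted p under 0.05, 1 by rank product, Cldn16). Egf, made in the distal convoluted tubule, read 13.47, 13.76 and 13.87 at 48 h, against 13.24, 12.96 and 13.11 at 24 h (adjusted p = 0.0535). Slc12a3, the thiazide-sensitive salt cotransporter, read 11.61, 12.19 and 12.72, against 11.73, 12.54 and 12.38 at 24 h (adjusted p = 0.997), Cldn16, a tight junction protein, differed by -1.21 (adjusted p = 0.332), and Kcnj10, a basolateral potassium channel, read 7.36, 7.46 and 7.86, against 8.80, 8.60 and 8.48 at 24 h (adjusted p = 0.158). Of 18 principal cell genes of the collecting duct limma called 0 (2 higher and 4 lower at an unadjusted p under 0.05, 1 by rank product, Aqp2). The sodium channel subunits Scnn1a, Scnn1b and Scnn1g differed by -0.09, -0.05 and -0.49 (adjusted p = 0.843, 0.98 and 0.113), and the water channel Aqp3 by -0.09 (adjusted p = 0.833).

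Array 24 h A was high for several collecting duct and papilla genes. Aqp2, the vasopressin-regulated water channel, read 9.01, 10.19 and 9.02 at 48 h, against 12.10, 10.22 and 10.08 at 24 h (adjusted p = 0.267). Elf5, a transcription factor of principal cells, read 2.21, 2.24 and 2.22 at 48 h, against 6.90, 2.48 and 2.21 at 24 h (adjusted p = 0.494). Sprr1a, an envelope protein of stressed epithelium, read 3.55, 3.78 and 3.56 at 48 h, against 7.75, 3.47 and 3.97 at 24 h (adjusted p = 0.502). For Elf5 and Sprr1a the 24 h mean rests on 24 h A. For Aqp2, 24 h B and C were also above 48 h A and C, and the difference was -1.79 to -0.74 in 9 fits that left out an array. The residual SD of 24 h A over all genes, 0.309, was the highest of the 9 kidney arrays (0.181 to 0.255 in the other 8). The summed level of the principal cell list was 21938 to 37898 at 48 h, 20747 to 30430 at 24 h and 13856 to 16051 in sham kidneys. The part of these levels in the results was not tested, and the fit without 24 h A called 162 genes.

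Of the vitamin D genes, Cyp24a1, the hydroxylase that inactivates the vitamin, read 7.14, 7.91 and 7.15 at 48 h, against 9.79, 8.96 and 8.75 at 24 h, without overlap (difference -1.76, adjusted p = 0.0784). Cyp27b1, the hydroxylase that activates it, read 7.43, 5.82 and 8.05 at 48 h, against 6.29, 3.44 and 2.56 at 24 h, with an overlap through 24 h A (difference 3.00, adjusted p = 0.25). Of the 18 genes of that list limma called 0 (1 higher and 1 lower at an unadjusted p under 0.05), and rank product called both hydroxylases.

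In the lists of other cells limma called Cd14 and, above, Fgb. Of 19 macrophage and dendritic cell genes, 0 rose and 1 fell: Cd14, a lipopolysaccharide coreceptor, read 4.08, 4.13 and 4.30 at 48 h, against 4.85, 4.70 and 4.59 at 24 h (at least 1.46-fold, adjusted p = 0.0348, and 0.107 without 48 h A), and 16 of the 19 were higher. Rank product called 1 of the 19 higher: Mrc1, a mannose receptor of macrophages, at 4.0, 5.85 and 5.33 at 48 h, against 3.08, 4.37 and 3.88 at 24 h, where the times overlapped (adjusted p = 0.374 by limma). Limma called 0 of 18 endothelial, 0 of 5 lymphocyte and 0 of 3 neutrophil genes, with 0 at an unadjusted p under 0.05 and 0 by rank product. It called 0 of 12 podocyte genes (4 higher at an unadjusted p under 0.05, 0 by rank product). Fibroblast and matrix genes gave 0 limma calls in 17 (6 lower at an unadjusted p under 0.05, 1 by rank product, Col3a1), with 15 lower and a median of -0.33. Col3a1 read 8.44, 8.98 and 7.46 at 48 h, against 9.75, 9.89 and 9.14 at 24 h (adjusted p = 0.224), and Col1a2 read 8.54, 8.89 and 7.97, against 9.70, 9.07 and 9.14 at 24 h (adjusted p = 0.22). Alas2, of heme synthesis in red cell precursors, read 3.59, 2.66 and 4.90 at 48 h, against 7.16, 5.18 and 6.35 at 24 h (adjusted p = 0.12 by limma), and rank product called it lower. A list of adipocyte genes was added after the values were seen, since Adipoq, the fat cell hormone adiponectin, read 2.21, 11.41 and 9.42 at 48 h, against 8.42, 9.23 and 2.22 at 24 h. Rank product called Adipoq higher, although the times overlapped. Of the 6 adipocyte genes tested limma called 0, with adjusted p-values of 0.647 to 0.967, and their median was 3.64 in 48 h A and 3.66 in 24 h C, against 5.98 to 8.67 in the other arrays of the 2 times. The part of these levels in the results was not tested.

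Housekeeping groups had few calls. Cytosolic ribosomal protein genes had 0 limma calls in 22 (1 higher at an unadjusted p under 0.05, 0 by rank product) and a median of 0.01, and Rplp0, a protein of the large ribosomal subunit, read 14.96, 15.02 and 15.01 at 48 h, against 15.03, 15.02 and 15.02 at 24 h (adjusted p = 0.905). Proteasome genes had 0 limma calls in 25 (2 higher and 3 lower at an unadjusted p under 0.05, 0 by rank product), with 20 lower and a median of -0.09. Of 30 genes of oxidative phosphorylation, 1 fell: Cycs, cytochrome c, read 14.82, 14.81 and 14.86 at 48 h, against 15.09, 15.10 and 15.07 at 24 h (1.20-fold, adjusted p = 0.0343, and 0.107 without 48 h A). Dlat and Pdhx, components of the pyruvate dehydrogenase complex, were singled out after their values were seen. Dlat read 9.26, 9.28 and 9.38 at 48 h, against 10.04, 9.85 and 10.04 at 24 h (1.59-fold, adjusted p = 0.0270), and Pdhx read 8.61, 8.60 and 8.34, against 9.13, 9.03 and 9.15 at 24 h (1.5-fold, adjusted p = 0.0287). Both fell with no overlap, and their sham arrays, 10.01 to 10.26 and 9.08 to 9.11, read like the 24 h arrays.

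The kidney's change between the times was set against the liver's in the same treatment groups, in 1 fit of 18 arrays. The difference of the changes was called for 3275 of the 11992 genes (27.3%), and for 54 of the 115 genes that rose in kidney and 54 of the 79 that fell. The genes that rose or fell were chosen by the kidney difference, which is also part of the difference of the changes. Their counts are therefore not independent of that choice. Asns fell in kidney (-1.53) while the liver difference was 2.16, and the changes differed by -3.69 (adjusted p = 0.000202). Mfsd2a differed by -4.79 (adjusted p = 0.00166), with a liver difference of 1.21, and Slc25a25 by -3.95 (adjusted p = 0.00587), with a liver difference of 0.76. Tnfrsf12a, Zmat3 and Aen were lower in both organs, with liver differences of -2.88, -3.17 and -2.84, and the liver differences were the larger (adjusted p = 0.00254, 0.000118 and 0.000646). Igfbp1 and Clec2h were higher in both, by 2.84 and 3.45 in liver, and the changes of the organs were not called different (-0.14, adjusted p = 0.887, and -1.01, adjusted p = 0.603). Nusap1 differed by 4.13 (adjusted p = 0.00103), with a mean of 2.25 in liver at both times, and Ccnb2 by 4.18 (adjusted p = 0.00641), with liver means of 2.52 at 48 h and 2.43 at 24 h. The liver means of both genes and all their 24 h kidney readings were within 1 of the lowest value, so a smaller level there could not be read.

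Liver array 48 h C stood apart from the other liver 48 h arrays. Its 3′ minus 5′ actin difference was 2.56, against 1.70 and 1.76 in 48 h A and B, its 3′ minus 5′ gapdh difference was 0.81, against 0.26 and 0.25, and its upper quartile was 6.45, against 6.76 and 6.87. The part of these values in the kidney minus liver differences was not tested, and without that array the difference was called for 3536 genes.

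**Figure D5:**
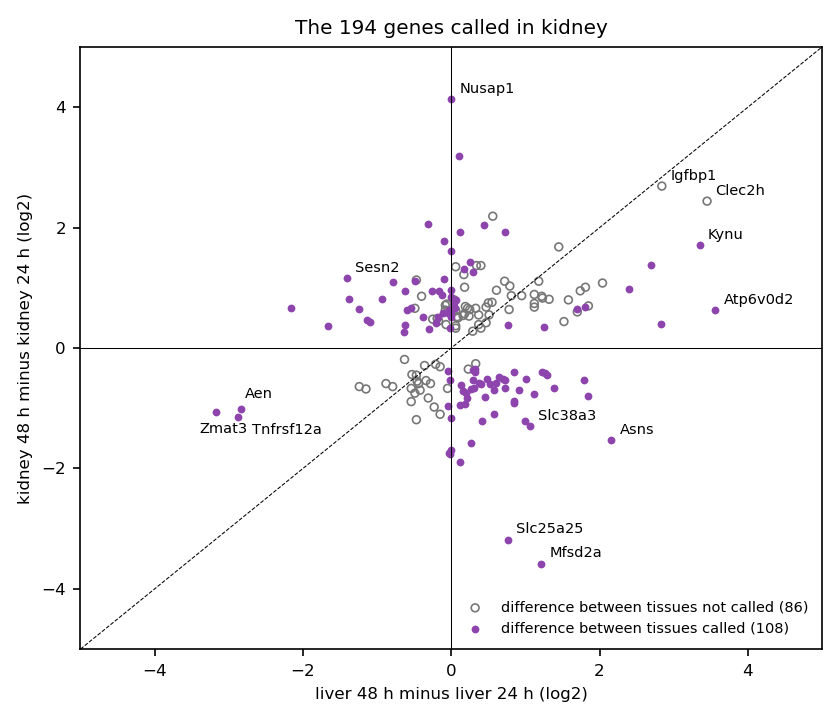
Difference between 48 h and 24 h in kidney (y axis, log2) against that in liver (x axis, log2) for the 194 genes called in kidney. Filled points are 108 genes in which the 2 changes were called different, open points the 86 in which they were not, and the dashed line marks equal change. Igfbp1 lies by the line, while Asns, Mfsd2a and Slc25a25 lie at the lower right, where kidney values are lower and liver values higher at 48 h.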

How the data were processed

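RNA of each organ was labelled with a One-Cycle kit and hybridised to Affymetrix whole-genome mouse arrays, per the labels' protocols; the labels list a Cy3 dye although the array has 1 colour. The authors computed log2 values with gcRMA, per the design text in the labels (versions not given in the sources used here), and the deposited log2 table was used as it stands. No scanner files were used, so background correction was not varied. Of 45101 probe sets, 34945 are named for 1 gene in an annotation of 2016, 932 for several and 9160 for none. The set with the highest mean over 18 arrays stood for each of 18193 genes. A gene was tested if above the array median in at least 3 of 9 kidney arrays.

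limma (3.58.1, R 4.3.3; lmFit and eBayes with an intensity trend) was fitted to the 9 kidney arrays with group means. Its two-sided p-values were adjusted by Benjamini-Hochberg over 11992 genes, and a gene was called under 0.05. Every adjusted p is from limma. The contrast between organs used 18 arrays. A reading less than 1 above the lowest value, or identical to another array's reading of the set, was taken as background, and a fold against it is a lower bound. Members, gene lists and tests were chosen with earlier results of these data known. Named genes were the 12 largest rises and falls among called genes without overlap, up to 4 called members of each of 40 lists, a panel of 40 genes, the 5 largest differences from liver each way, the 2 largest of each list without a call and the 10 mitosis genes highest in 48 h A. Alternatives were other filters, probe set rules, scalings, variance models, array sets, rank product with 100 permutations, the letter as a block, and leaving out each array. Correlations of deviations of same-lettered kidney arrays across groups were -0.12 to 0.23. Arrays of different letters were not compared in this way, so these values cannot decide whether a letter marks a pairing or a batch. Whether kidney and liver arrays of the same letter and time came from the same mouse was not tested. The contrast between organs treated them as independent.

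On simulated data made from these arrays (11992 genes), the fit recovered 21.5% of genes shifted by 0.5, 68.7% by 1 and 88.2% by 2, and called 33 of 58960 unchanged ones. Arrays have no read depth, so the 3 arrays per group limit the precision.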

Additional observations from a re-analysis of the deposited data

Results flagged for a closer look

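Kidney and liver changed differently between 24 h and 48 h in 3275 genes, by the test of the difference itself. Among the 133 named genes this held for 58, given here as the kidney change minus the liver change (log2, 48 h minus 24 h in each organ). In 31 the kidney change was the more positive and in 27 the more negative.

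Among genes that were lower in 48 h than in 24 h kidneys, the organs' changes differed by -4.79 for Mfsd2a, -3.95 for Slc25a25, -3.69 for Asns, -2.35 for Slc38a3 and -2.20 for Nans. They differed by -2.02 for Bdnf, -1.84 for Pdia6, -1.75 for Bcat1, -1.72 for Asb11, -1.70 for Klhl14, -1.62 for Mtmr11, -1.12 for Pdia3 and -0.95 for Fgg. The liver means of Bdnf, Bcat1, Asb11 and Klhl14 were within 1 of the lowest value at both times, so no liver change can be read for them. Tnfrsf12a, Aen and Zmat3 gave 1.73, 1.84 and 2.11, with more negative differences in liver than in kidney.

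Among genes that were higher in 48 h kidneys, the organs' changes differed by 4.13 for Nusap1, 3.08 for Syn3, 2.57 for Sesn2, 2.38 for Zc3h12c, 1.86 for Etnppl and 1.8 for Ackr4. They differed by 1.75 for Klf6, 1.62 for Prodh2, 1.61 for Tlcd5 and for Cpne4, 1.23 for Cyp2d26 and for Slc7a9, and 1.21 for Ftcd and for Cfb. The liver means of Nusap1 and Cpne4 were within 1 of the lowest value at both times, so no liver change can be read for them. Atp6v0d2, at -2.93, and Kynu, at -1.64, were higher at 48 h in both organs, and more so in liver.

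The other named genes were not called in kidney. Cyp8b1, a bile acid enzyme, differed by -7.29, Tmtc2 by -5.24 and Atf3 by 3.38, but all 3 were at background in every kidney array of both times, so no kidney change can be read for them. Epm2aip1 differed by 5.12, H2bc21 by 4.24 and Plk2 by 4.10. G6pc differed by -5.89, Sprr1a by -4.90, Cyp24a1 by -1.64, Psmd14 by -1.54, Upp1 by -1.45, Slc39a14 by -1.35, Psma4 by -1.13, Dbp by -1.12, Kcnj10 by -1.08 and Dgat2 by -0.85. On the positive side Ccnb2 differed by 4.18, Birc5 by 3.22, Cdkn1a by 2.99, Hmox1 by 2.92, Gclc by 2.46, Utp20 by 1.77, Wdr43 by 1.45, Icam1 by 1.27, Nfkbia by 0.97 and Egf by 0.78. Nusap1, Ccnb2 and Birc5 were at background in all 24 h kidney arrays and had liver means within 1 of the lowest value at both times, which limits these differences. Cyp24a1 and Egf also had liver means within 1 of the lowest value at both times, so no liver change can be read for them.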

How the results depend on the processing

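The number of genes called between 48 h and 24 h kidneys was 194. It was 145 (rank product) to 265 (values above 5 in at least 3 arrays) under 9 of 14 other settings. A fit of all 18 arrays called 181, of which 71 were among the 194. It was 64 with no filter on low values, 312 with all probe sets, 302 with median centring (205 higher and 97 lower), 19 with only the 6 arrays compared and 4 with the array letter as a replicate block. Leaving out 1 array gave 1 to 162 calls: 1, 15 and 21 without 48 h A, B or C, 162, 111 and 26 without 24 h A, B or C, and 76, 54 and 156 without sham A, B or C. Without 48 h A and with the 11992 genes kept as tested, 7 rose and 1 fell. Dropping 48 h A or keeping 6 arrays also leaves fewer arrays for the spread. None of the 43 called named genes turned its direction under any setting, and 0 of them were called in all 9 fits that left out an array. The replicate block kept 1 of the 43 calls. Kidney minus liver calls, 3275, were 2695 to 4373 under the 8 other settings, 2962 with the replicate block, and 2786 to 3536 without 1 array. Of 39 further probe sets of the called named genes, 14 differed by at most 0.1 on the log2 scale, 24 by more with the same sign and 1, of Slc38a3, by more with the opposite sign. Readings at background limit what can be said of low genes.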

Other observations

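Further genes called between 48 h and 24 h kidneys lie outside the lists and were singled out after their values were seen. Dnajc12, a cochaperone of the aromatic amino acid hydroxylases, read 13.67, 13.59 and 13.73 at 48 h, against 12.68, 12.72 and 12.92 at 24 h (1.85-fold, adjusted p = 0.00986), and its sham arrays read 13.54 to 13.70. Cmbl, a carboxymethylenebutenolidase, had some of the tightest arrays, 12.77, 12.79 and 12.81 at 48 h, against 12.11, 12.16 and 12.07 at 24 h (1.60-fold, adjusted p = 0.00672). Inmt, which methylates indoles with S-adenosylmethionine, read 13.68, 13.74 and 13.90 at 48 h, against 12.68, 12.64 and 12.33 at 24 h (2.33-fold, adjusted p = 0.0355). Its sham arrays read 13.38, 13.72 and 14.12, a range that held all 48 h arrays. Akr1d1, the steroid 5-beta-reductase, rose 2.15-fold (adjusted p = 0.0429) and Cat, catalase, 1.26-fold (adjusted p = 0.0343). Nudt19, a peroxisomal hydrolase of coenzyme A esters in mouse kidney, fell: it read 13.32, 13.34 and 13.52 at 48 h, against 14.29, 14.34 and 14.31 at 24 h (1.90-fold, adjusted p = 0.0270). In each of these the times did not overlap.

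Named genes of other lists are given as values. Upp2, uridine phosphorylase, differed by 2.08 (adjusted p = 0.295) and Upp1 by -0.67 (adjusted p = 0.402). Insig1 and Fdft1, of sterol synthesis and its control, differed by 0.99 (adjusted p = 0.093) and 0.78 (adjusted p = 0.325). In fatty acid and glycerolipid synthesis, Gpam differed by 0.64 (adjusted p = 0.189) and Dgat2 by -0.38 (adjusted p = 0.349). In ribosome biogenesis, Utp20 differed by 0.49 (adjusted p = 0.213) and Wdr43 by 0.45 (adjusted p = 0.0594), and among ribosomal proteins Rpl37 by 0.44 (adjusted p = 0.162) and Rpl8 by -0.24 (adjusted p = 0.331). Psma4 and Psmd14 of the proteasome differed by -0.47 (adjusted p = 0.0629) and -0.35 (adjusted p = 0.175). Wt1 and Kirrel of podocytes differed by 1.30 (adjusted p = 0.328) and 1.05 (adjusted p = 0.239), and Cdh5 and Sox18 of endothelium by 0.31 (adjusted p = 0.627) and -0.38 (adjusted p = 0.533). Slc4a1, a band 3 exchanger of red cells and intercalated cells, differed by 0.53 (adjusted p = 0.548). Jchain and Cd4 of lymphocytes differed by -0.06 (adjusted p = 1) and -0.08 (adjusted p = 0.791), and Elane and Csf3r of neutrophils by 0.09 (adjusted p = 0.505) and 0.05 (adjusted p = 0.567).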
